A study of Mus musculus with 6 samples.

Results

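10 well-known transcriptional targets of p53 were followed in mouse livers after acute carbon tetrachloride (CCl4) injury: Cdkn1a, Ccng1, Btg2, Mdm2, Phlda3, Eda2r, Aen, Trp53inp1, Zmat3 and Sesn1. They were chosen by name as established targets, with earlier results of these data known. All 10 were found among the 24346 genes of the deposited table. RNA came from whole livers of male C57/BL6 mice at 8 weeks of age, each killed 24 h after 1 intraperitoneal dose of CCl4 (0.6 μl per g body weight, in sunflower oil). The labels give 3 mice the genotype wt and 3 the genotype med23 ko. In the study these are floxed med23f/f controls and med23Δli mice, in which a Cre driven by the Albumin promoter deletes Med23 in hepatocytes while the other liver cells keep the gene. No uninjured liver was among the samples, so each value describes an injured liver and the comparison is between genotypes.

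p53, encoded by Trp53, is a transcription factor that is kept scarce by the ubiquitin ligase MDM2 and accumulates when DNA damage or other stress blocks that degradation. It then binds a 20-base response element near its targets and switches on genes for cell cycle arrest, apoptosis, repair, metabolism and its own negative feedback. CCl4 is turned into a reactive radical by hepatocyte cytochrome P450 enzymes. MED23 is a subunit of Mediator, the complex that passes signals from transcription factors to RNA polymerase II.

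Values are FPKM, fragments scaled to transcript length and library size, so levels can be set side by side between genes. Groups were compared with limma on log2(FPKM + 0.1) over 11956 genes whose mean reached 0.5 FPKM, and a gene passed the test at a Benjamini-Hochberg adjusted p under 0.05. Fold changes on this scale understate the change of genes with low values. FPKM hold no read counts, so the depth behind a value is unknown. Each library listed 7628 to 9341 genes at 0, and the median difference between the groups over all tested genes was 0.02 on the log2 scale. Med23 itself did not separate the groups: it had 3.42, 2.97 and 4.14 FPKM in the controls and 3.40, 3.40 and 2.91 FPKM in those carrying the med23 ko label, a log2 change of −0.11 (adjusted p = 0.685, limma). A value over the whole gene does not show whether the floxed part is missing, so it is no check of the deletion, and the genotype is taken from the labels.

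4 of the 10 genes, Trp53inp1, Eda2r, Zmat3 and Ccng1, were higher in med23Δli livers and passed the test, and 0 passed limma's test in the other direction (1, Phlda3, at an unadjusted p under 0.05). Among all 11956 tested genes 11.6% passed in the upward direction and 9.48% in the downward direction. Trp53inp1 and Eda2r also rose more than 2-fold, as did 4.45% of all tested genes, while 3.45% fell by more than 2-fold. The other 6 genes, among them the best known targets Cdkn1a and Mdm2, did not pass. In the same 4 genes every med23Δli liver was above every control, against 23.3% of all tested genes. Phlda3 alone had every med23Δli liver below every control, against 20.4%. Eda2r reached the 0.5 FPKM minimum only through the med23Δli livers, so 3 of the other 9 genes give the count without it. Log2 fold changes of the 10 genes ran from −0.68 to 2.46 with a median of 0.12, beside 0.02 for all tested genes. With any 1 of the 3 med23Δli libraries left out, 2 genes passed, Eda2r and Zmat3, and the number of risers among all tested genes went from 1384 to between 411 and 594. Leaving out control 1 removed Trp53inp1 from the 4, and leaving out control 2 removed Ccng1.

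**Figure D1:**
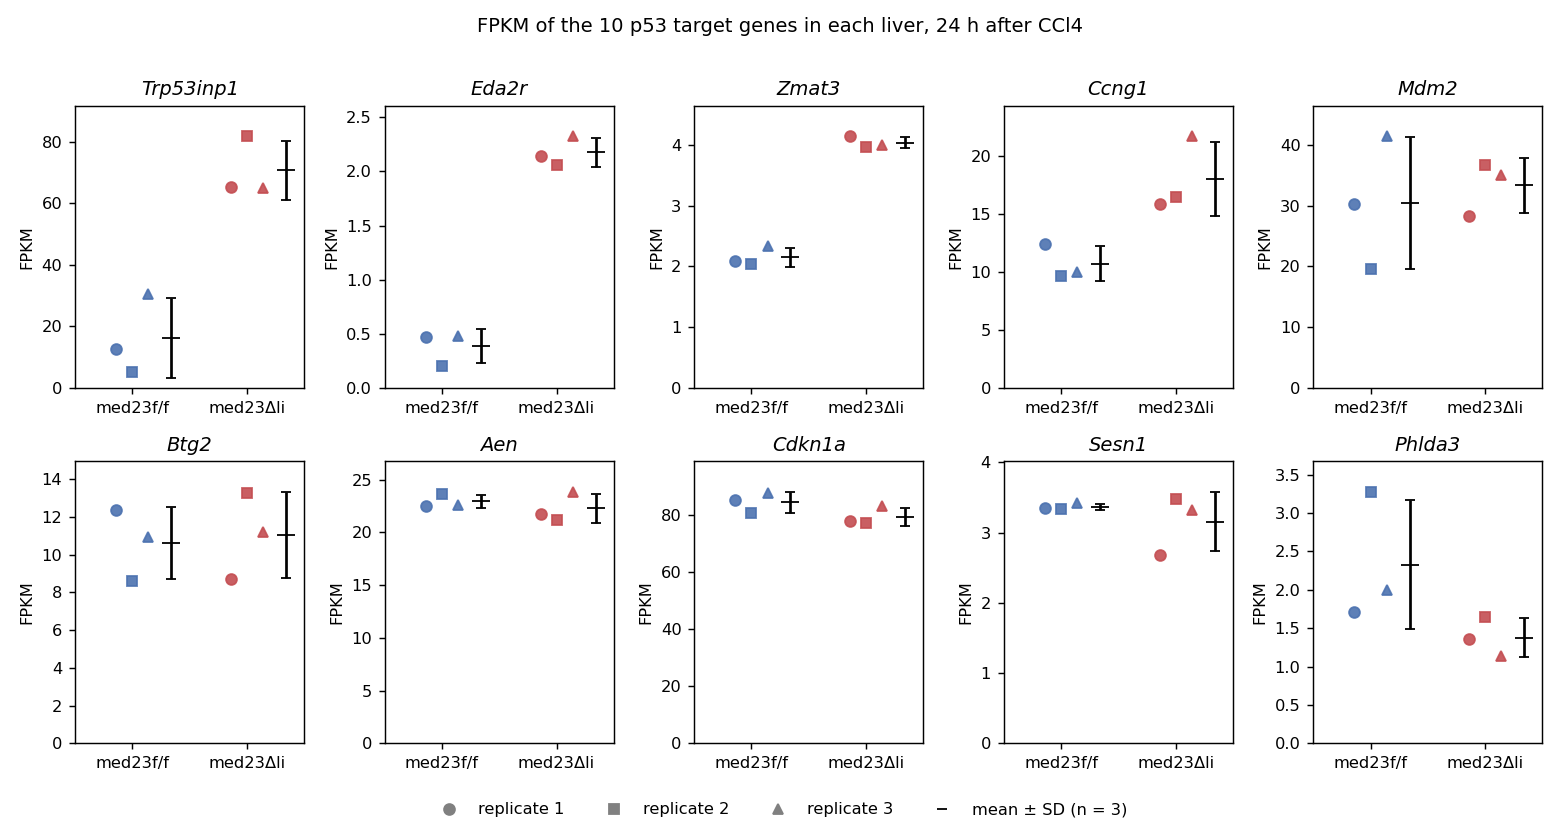
FPKM (y axis, starting at 0) of the 10 p53 target genes in each of 3 med23f/f (blue) and 3 med23Δli (red) livers, with the mean ± SD of each group in black. The groups lie apart in Trp53inp1, Eda2r, Zmat3 and Ccng1, with med23Δli higher, and in Phlda3, with med23Δli lower, and they overlap in the other 5 genes.

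The cell cycle group held Cdkn1a, Ccng1 and Btg2. Cdkn1a encodes p21, the inhibitor of cyclin-dependent kinases through which p53 arrests the cell cycle, and lies on chromosome 17 of mm10 from 29090976 to 29100727 on the plus strand. It had the highest level of the 10 genes in both groups. Its levels were 85.1, 80.4 and 87.6 FPKM in the controls and 77.7, 77.0 and 83.0 FPKM in the med23Δli livers. The ranges overlapped, and the livers of both groups lay close together. Its log2 fold change was −0.09 with a standard error of 0.12 (adjusted p = 0.601, limma), and its 95% interval from −0.36 to 0.18 does not reach a 2-fold difference in either direction. Cdkn1a overlaps AC167363.2 on the other strand, and the counting is not stated to use strand.

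Promoter sequences were read for these genes because p53 binds its direct targets at a response element. The RefSeq table for GRCm38.p6, the assembly of mm10, gave windows from 250 bases before to 50 bases after the start for 8 of the 10 genes. Trp53inp1 and Zmat3 were not matched. An element outside these windows would be missed, so a gene without a match may still be a direct target. The p53 consensus was searched as 2 adjacent copies of 10 bases, each with 3 purines, a 4-base core of C, 2 bases that are A or T, and G, and 3 pyrimidines. It is its own reverse complement, so 1 search covers both strands. With both cores intact and at most 1 mismatch elsewhere, 1 of the 8 genes held a match, Cdkn1a, against 0.0666% of the 27025 genes in the table. The Cdkn1a element lies in the window of its upstream start, chr17:29090729-29091028 on the plus strand. It spans 29090928 to 29090947, from 51 to 32 bases before that start, and its centre is 2831 bases before the downstream start at 29093769. The window is printed with the 2 cores of the element in capitals.
Cdkn1a upstream window: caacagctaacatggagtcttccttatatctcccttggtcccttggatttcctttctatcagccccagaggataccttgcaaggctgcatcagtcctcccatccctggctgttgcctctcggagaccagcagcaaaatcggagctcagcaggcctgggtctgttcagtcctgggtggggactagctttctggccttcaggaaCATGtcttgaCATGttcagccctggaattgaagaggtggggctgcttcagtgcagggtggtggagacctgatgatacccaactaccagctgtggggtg

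Ccng1 encodes cyclin G1, which brings the phosphatase PP2A to MDM2, and lies on chromosome 11 from 40748552 to 40755311 on the minus strand. It had 12.4, 9.65 and 9.99 FPKM in the controls and 15.9, 16.4 and 21.7 FPKM in the med23Δli livers. Every med23Δli liver was above every control, and med23Δli replicate 3 was the highest. The means were 10.7 ± 1.51 and 18.0 ± 3.21 FPKM (SD, n = 3 each). For this gene the log2 fold change was 0.74 with a standard error of 0.17 (adjusted p = 0.0225, limma). The exact permutation test, two-sided, gave p = 0.1, the smallest that 3 livers against 3 allow, also for the other 3 genes that passed and for Phlda3. With each library left out the log2 fold change stayed between 0.60 and 0.85, but the adjusted p rose to between 0.0535 and 0.0734 without control 2 or without any med23Δli library.

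When a mismatch was also allowed in a core, a choice made after seeing the sequences, Ccng1 joined Cdkn1a, so that 2 of the 8 genes and 0.107% of all genes in the table held a match. The Ccng1 element spans 40755462 to 40755481, from 195 to 176 bases before the start. Its window, chr11:40755237-40755536 on the minus strand, is printed in gene direction with the core positions in capitals, and the first core, CCTG, carries the mismatch.
Ccng1 window: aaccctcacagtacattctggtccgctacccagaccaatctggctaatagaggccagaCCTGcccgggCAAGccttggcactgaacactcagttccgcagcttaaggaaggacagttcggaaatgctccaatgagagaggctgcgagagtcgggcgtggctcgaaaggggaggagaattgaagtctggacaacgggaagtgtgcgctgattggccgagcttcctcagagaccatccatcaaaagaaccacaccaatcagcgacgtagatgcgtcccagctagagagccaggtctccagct
The 2 elements are set side by side here, with the core positions in capitals.
Cdkn1a element: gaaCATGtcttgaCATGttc
Ccng1 element: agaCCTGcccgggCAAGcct

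Btg2, an antiproliferative adaptor of the CCR4-NOT deadenylase on chromosome 1 (134075170 to 134079120, minus strand), had 12.4, 8.60 and 10.9 FPKM in the controls and 8.69, 13.3 and 11.2 FPKM in the med23Δli livers. The 2 groups covered almost the same range. The log2 fold change was 0.05 (95% interval from −0.41 to 0.51, adjusted p = 0.880, limma), and it was −0.09 without control 2 or without med23Δli replicate 2.

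Mdm2, the ligase that closes the negative feedback loop on p53, lies on chromosome 10 from 117688875 to 117710758 on the minus strand. It had 30.3, 19.6 and 41.4 FPKM in the controls and 28.2, 36.8 and 35.1 FPKM in the med23Δli livers. The med23Δli values lay inside the control range, which ran from the lowest to the highest of the 6 values. Its log2 fold change was 0.19 with a 95% interval from −0.42 to 0.79 (adjusted p = 0.631, limma), and it was −0.10 without control 2.

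4 of the genes act in death, survival or signalling at the membrane. Trp53inp1 encodes a stress-induced nuclear protein that promotes p53-dependent apoptosis and also takes part in autophagy, and lies on chromosome 4 from 11156431 to 11174379 on the plus strand. It had 12.6, 5.30 and 30.6 FPKM in the controls and 65.2, 81.8 and 65.0 FPKM in the med23Δli livers. The lowest med23Δli liver was well above the highest control, but the 3 controls were far apart. The means were 16.2 ± 13 and 70.7 ± 9.60 FPKM (SD, n = 3 each). Limma gave a log2 fold change of 2.46 ± 0.53 (SE, adjusted p = 0.0181). The 95% interval of the fold ran from 2.35 to 12.8. With each library left out the log2 fold change ranged from 1.83 to 3.09 and the adjusted p from 0.00215 to 0.0622, with the values above 0.05 arising without control 1 or without any med23Δli library.

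Eda2r encodes XEDAR, a receptor of the tumour necrosis factor family that binds ectodysplasin A2, and lies on chromosome X from 97333840 to 97377216 on the minus strand. It had 0.470, 0.201 and 0.481 FPKM in the controls and 2.14, 2.06 and 2.33 FPKM in the med23Δli livers. All 3 controls were under the 0.5 FPKM minimum, and the 3 med23Δli livers were within a narrow range. For this gene the log2 fold change was 2.29 with a standard error of 0.30 (adjusted p = 0.00403, limma), and the ratio of the mean FPKM was 5.67. Eda2r passed with each library left out, at adjusted p from 0.00343 to 0.0257. Its window is printed because it rose most, relative to its controls, of the genes that had one. The window, chrX:97377160-97377459 on the minus strand, held no match to the p53 consensus under any of the 3 settings, which concerns these letters only, and is printed in gene direction with nothing in capitals.
Eda2r window: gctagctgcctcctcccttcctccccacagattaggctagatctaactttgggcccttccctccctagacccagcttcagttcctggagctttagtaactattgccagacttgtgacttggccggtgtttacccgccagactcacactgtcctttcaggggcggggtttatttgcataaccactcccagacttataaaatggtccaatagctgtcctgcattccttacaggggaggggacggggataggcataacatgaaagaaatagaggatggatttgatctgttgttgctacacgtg

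Phlda3 encodes a pleckstrin-homology protein that keeps AKT from the membrane, and lies on chromosome 1 from 135766119 to 135769136 on the plus strand. It had 1.71, 3.28 and 2.0 FPKM in the controls and 1.35, 1.64 and 1.13 FPKM in the med23Δli livers. The med23Δli values were all below the controls, but the gap between 1.64 and 1.71 was small and control 2 stood above the rest. The log2 fold change was −0.68 with a standard error of 0.27 (adjusted p = 0.109, limma), so the difference did not pass. Aen, a nuclease that promotes apoptosis (chromosome 7, 78895854 to 78911209, plus strand), had 22.5, 23.7 and 22.6 FPKM in the controls and 21.8, 21.2 and 23.9 FPKM in the med23Δli livers. Its ranges overlapped, with a log2 fold change of −0.04 and a 95% interval from −0.32 to 0.23 (adjusted p = 0.815, limma).

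Zmat3 encodes a zinc-finger protein that binds RNA and affects the stability and splicing of its target transcripts, and lies on chromosome 3 from 32334792 to 32366014 on the minus strand. It had 2.09, 2.04 and 2.33 FPKM in the controls and 4.14, 3.97 and 4.00 FPKM in the med23Δli livers. The 2 groups were far apart compared with the spread inside each. Its log2 fold change was 0.88 with a standard error of 0.14 (adjusted p = 0.00771, limma), a fold of 1.84 with a 95% interval from 1.46 to 2.31. It passed with each library left out, at adjusted p from 0.00660 to 0.0471. Sesn1, a sestrin that restrains mTORC1 under nutrient and oxidative stress (chromosome 10, 41809935 to 41908424, plus strand), had 3.35, 3.33 and 3.42 FPKM in the controls and 2.68, 3.48 and 3.32 FPKM in the med23Δli livers. Only med23Δli replicate 1 was apart from the other 5 livers. For this gene the log2 fold change was −0.10 with a 95% interval from −0.46 to 0.26 (adjusted p = 0.675, limma), and it was 0.01 without that liver. Sesn1 overlaps 9930024M15Rik on the same strand, and reads in the overlap could belong to either.

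**Figure D2:**
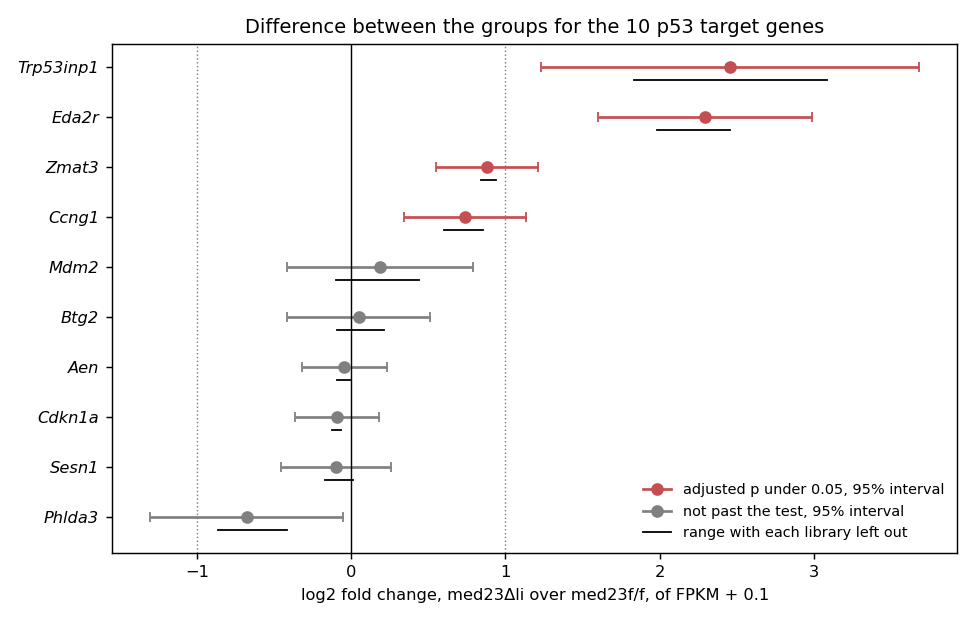
Log2 fold change of FPKM + 0.1, med23Δli over med23f/f (x axis), for the 10 p53 target genes, with limma's 95% interval (bars) and the range when each of the 6 libraries was left out (thin lines). Dotted lines mark a 2-fold change. The 4 genes that passed (red) lie between 0.74 and 2.46, and the interval of Phlda3 reaches from −1.30 to −0.06.

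The order of levels changed with Trp53inp1 and at the lower end. In the controls Cdkn1a was first and its lowest liver (80.4 FPKM) was above the highest of Mdm2 (41.4 FPKM), while Mdm2, Aen, Trp53inp1, Ccng1 and Btg2 followed, each overlapping in range with the next. Sesn1, Phlda3, Zmat3 and Eda2r made up the lower end, where Phlda3 and Zmat3 overlapped. In the med23Δli livers Trp53inp1 stood second and its range, 65.0 to 81.8 FPKM, overlapped that of Cdkn1a, 77.0 to 83.0 FPKM. Cdkn1a was 6.77, 15.2 and 2.86 times the level of Trp53inp1 in the controls and 1.19, 0.941 and 1.28 times in the med23Δli livers. At the lower end Zmat3 moved from place 9 to 7, above Sesn1, Eda2r from 10 to 9 and Phlda3 from 8 to 10, and none of their med23Δli ranges overlapped.

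The genes also differed in how much the livers of 1 group varied. On the FPKM + 0.1 scale the highest control was 5.69 times the lowest for Trp53inp1, a spread larger than that of 98.8% of tested genes, and 2.11 times for Mdm2. For Cdkn1a, Aen and Sesn1 it was 1.09, 1.05 and 1.02 times, beside a median of 1.40 over all tested genes. In the med23Δli livers Trp53inp1 spread over 1.26 times and Mdm2 over 1.30 times, beside a median of 1.21. Control 2 had the lowest control value in 8 of the 10 genes and in 39.9% of all tested genes, a pattern noticed after the values were seen and given as a description.

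**Figure D3:**
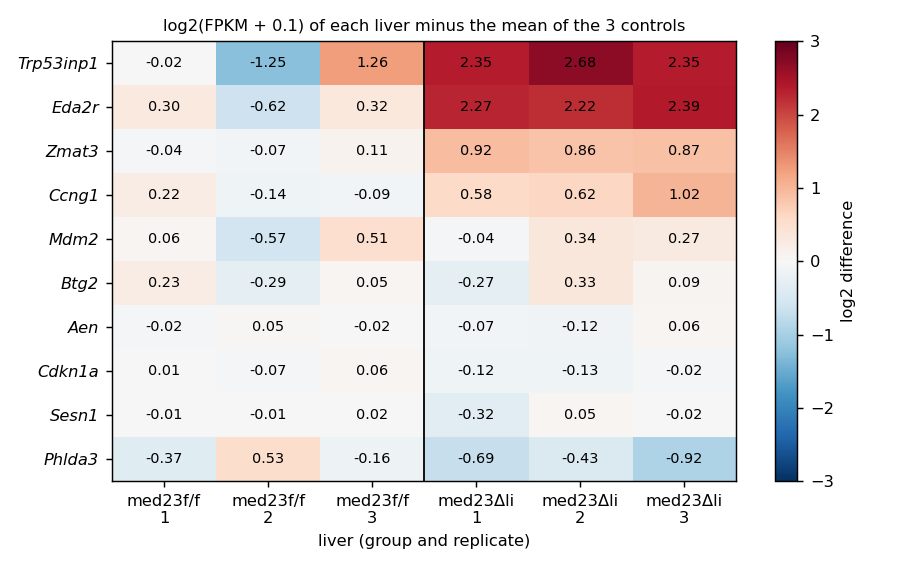
Log2(FPKM + 0.1) of each liver minus the mean of the 3 controls, for the 10 p53 target genes (rows) in the 6 livers (columns), printed in each cell and coloured from blue (lower) to red (higher). Control values of Trp53inp1 run from −1.25 to 1.26, and its 3 med23Δli values from 2.35 to 2.68.

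A further 53 known p53 targets, also listed with earlier results of these data known, were examined with the same test. Of them 51 reached 0.5 FPKM. Of these, 11 rose, 7 fell and 33 did not pass, shares of 21.6% and 13.7% beside 11.6% and 9.48% of all tested genes. The median log2 fold change was 0.09, beside 0.02. Of the 51, 7 rose and 2 fell by more than 2-fold, beside 4.45% and 3.45% of all tested genes. Without med23Δli replicate 1, 2 or 3, respectively, 5, 5 and 4 rose and 3 fell each time, while over all tested genes the risers went from 1384 to 411, 495 and 594 and the fallers from 1133 to 354, 444 and 424. Of the 11 risers 4 passed with each of the 6 libraries left out in turn (Plk3, Bbc3, Crot and Gdf15), as did 2 of the 7 that fell (Sertad1 and Fdxr), and the other 7 and 5 were lost without at least 1 library. E2f7 and Spata18 were under the minimum, and Cyfip2 reached it only through the med23Δli livers, so that 10 of 50 rose without it. Cyfip2 is also among the 7 that rose more than 2-fold. Its log2 fold change was 1.38, and 0.65 with a pseudocount of 1.

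Among arrest genes 2 of 6 rose and 1 fell, beside 11.6% and 9.48% of all tested genes. Plk3, a stress-activated polo-like kinase, had 27.2, 16.4 and 46.1 FPKM in the controls and 103, 92.6 and 85.7 FPKM in the med23Δli livers, a log2 change of 1.77 (adjusted p = 0.0115, limma). Btg1, a relative of Btg2, had 14.9, 5.0 and 21.5 FPKM against 38.1, 38.0 and 31.6 FPKM, a log2 fold change of 1.60 that passed only narrowly (adjusted p = 0.0445, limma). It was 0.99 without control 2 and 2.04 without control 3, and it did not pass without control 1 or without any 1 of the med23Δli libraries. In both genes the controls lay apart from the med23Δli livers and from each other. Sertad1, a cofactor of CDK4 and E2F, fell by 1.29 on the log2 scale, from a mean of 29.5 ± 7.92 to 11.8 ± 1.01 FPKM (SD, n = 3 each). Gadd45a, a growth arrest and DNA repair factor, had 12, 17 and 12.6 FPKM against 24.1, 15.7 and 31.2 FPKM and did not pass (adjusted p = 0.0789, limma). Without med23Δli replicate 2 it did (adjusted p = 0.0398).

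Of 10 apoptosis genes 2 rose and 2 fell, beside 11.6% and 9.48% of all tested genes. Bbc3, which encodes the BH3-only killer protein PUMA, had 2.80, 1.87 and 3.22 FPKM in the controls and 9.21, 9.77 and 9.35 FPKM in the med23Δli livers. The med23Δli livers were nearly level and far above the controls, with a log2 change of 1.84 (adjusted p = 0.00237, limma). Fas, a death receptor, rose by 1.06 on the log2 scale, from 5.56 ± 1.29 to 11.6 ± 2.21 FPKM. Perp, a tetraspan membrane protein of desmosomes, fell by 0.62, and Pidd1, the scaffold of the PIDDosome, fell by 0.83. Perp did not pass without any 1 of the med23Δli libraries, and Pidd1 did not pass without control 1, control 2 or med23Δli replicate 2 or 3. Bax, the pore former of the outer mitochondrial membrane, was abundant, with 106, 113 and 117 FPKM against 146, 125 and 127 FPKM. Its groups did not overlap, but the log2 fold change of 0.24 did not pass (adjusted p = 0.207, limma).

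Of the 9 metabolic and redox targets 2 rose and 1 fell, again beside 11.6% and 9.48% of all tested genes. Crot, which hands medium-chain acyl groups from peroxisomes to carnitine, had 67.9, 53.5 and 42.1 FPKM in the controls and 196, 170 and 140 FPKM in the med23Δli livers (log2 fold change 1.65, adjusted p = 0.00356, limma). Steap3, an endosomal ferrireductase, rose by 0.64. Fdxr, which passes electrons to mitochondrial ferredoxin, had 18.5, 22.2 and 11.8 FPKM against 7.26, 5.29 and 7.45 FPKM and fell by 1.35 on the log2 scale (adjusted p = 0.0112, limma). Its groups did not overlap, and it was the largest fall among the 51.

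Of 8 secreted and surface proteins 2 rose and 0 fell by limma's test (2 and 0 at an unadjusted p under 0.05), beside the same 11.6% and 9.48%. Gdf15, a stress cytokine of the TGF-β family, rose from 21.9 ± 2.28 to 44.6 ± 11.5 FPKM (SD, n = 3 each, log2 fold change 0.99, adjusted p = 0.0130, limma). Kitl, the ligand of the receptor KIT, rose by 1.55, from 1.66 ± 0.848 to 4.62 ± 0.275 FPKM, but did not pass without any 1 of the med23Δli libraries. Among the remaining targets Cyfip2, Rap2b and Abhd4 rose by 1.38, 0.71 and 0.57, and Trp53i13, Prkab1 and Ier5 fell by 0.89, 0.53 and 0.45 on the log2 scale. None of the 5 repair and nucleotide supply genes, the 3 other feedback genes or Dram1, the autophagy gene that could be tested, passed limma's test. At an unadjusted p under 0.05 these groups held 1, 1 and 1 genes that were higher and 1, 1 and 0 that were lower, respectively.

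**Figure D4:**
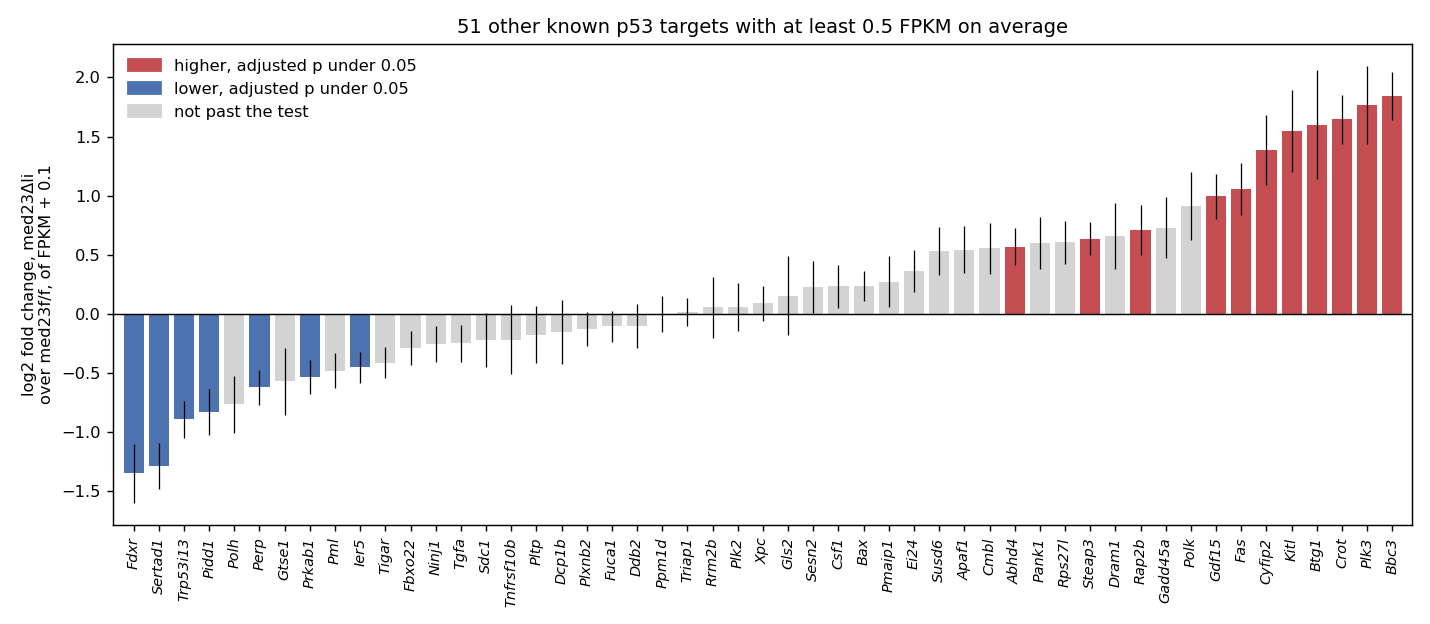
Log2 fold change of FPKM + 0.1, med23Δli over med23f/f (y axis), of the 51 tested targets outside the 10 described first, in order of size, with limma's standard error as bars. The 11 red genes rose, the 7 blue genes fell, and 33 grey genes did not pass, with values from −1.35 for Fdxr to 1.84 for Bbc3.

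The transcript of p53 itself was level. Trp53 had 26.3, 32.8 and 28.7 FPKM in the controls and 31.9, 29.7 and 30.0 FPKM in the med23Δli livers, a log2 fold change of 0.07 with a 95% interval from −0.24 to 0.37 (adjusted p = 0.744, limma). Its direction was 0.00 under quantile normalization and −0.01 without control 1. FPKM measure transcripts, and p53 is regulated largely as a protein, which was not measured here. Of 17 tested genes among p53 and its regulators 1 rose and 1 fell (5 and 2 at an unadjusted p under 0.05), shares of 5.88% each beside 11.6% and 9.48% of all tested genes, with a median log2 fold change of 0.07. Trp53bp1, a chromatin-bound adaptor at DNA breaks, rose by 0.57, from 2.96 ± 0.408 to 4.43 ± 0.280 FPKM (adjusted p = 0.0369, limma). Ppp1r13b, which encodes the p53 cofactor ASPP1, fell by 0.67, from 7.31 ± 1.05 to 4.54 ± 0.343 FPKM (adjusted p = 0.0211, limma). Neither passed with any 1 of the med23Δli libraries left out. Mdm4, the partner of MDM2 that holds p53 inactive, had 7.07, 5.10 and 6.24 FPKM against 7.93, 8.01 and 8.30 FPKM and did not pass (log2 fold change 0.40, adjusted p = 0.0944, limma).

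Of 27 cell cycle genes that p53 represses through p21, 16 reached 0.5 FPKM: all 9 of S phase and 7 of 18 of G2 and mitosis. By limma's test 1 rose and 0 fell (2 and 1 at an unadjusted p under 0.05), shares of 6.25% and 0% beside 11.6% and 9.48% of all tested genes. Pcna, the sliding clamp of DNA replication, was the most abundant (named after its values were seen), with 55.6, 45.5 and 64.4 FPKM in the controls and 44.8, 43.4 and 40.6 FPKM in the med23Δli livers. The 1 was Prc1, an organiser of the spindle midzone, with 0.374, 0.246 and 0.388 FPKM in the controls and 0.902, 0.586 and 1.19 FPKM in the med23Δli livers (log2 fold change 1.16, adjusted p = 0.0447, limma). Prc1 reached the minimum only through the med23Δli livers, and without it 0 of 15 passed limma's test. Mki67, a marker of cycling cells, had 0.221, 0.0403 and 0.0803 FPKM against 0.406, 0.106 and 0.348 FPKM, and Ccnb1, the mitotic cyclin B1, had 0.175, 0.171 and 0.447 FPKM against 0.917, 0.0829 and 0.846 FPKM. Both were too low to be tested, and their groups overlapped. Of the 11 genes of this list that were not tested, 3 had every med23Δli liver above every control (Cdc25c, Bub1b and Kif20a, named after their values were seen), 0 had every one below, and 8 overlapped. Among the 16 tested genes of the list 2 lay above and 2 below in this way, beside 23.3% and 20.4% of all tested genes.

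These are whole livers, in which fewer cells of a type and less RNA per cell cannot be told apart. Hepatocyte markers were abundant in every liver, with sums of 23753 to 33164 FPKM in the controls and 20074 to 26738 FPKM in the med23Δli livers. Of the 7, 2 (Cyp2e1 and Cyp1a2) passed limma's test upward and 0 downward, beside 11.6% and 9.48% of all tested genes. All 6 endothelial markers fell, with sums of 81.4 to 119 FPKM in the controls and 43.7 to 46.9 FPKM in the med23Δli livers. So did 1 of 7 stellate cell markers, Des. The share that fell among all tested genes was 9.48%. Of the macrophage (7), monocyte (4), cholangiocyte (4) and neutrophil (4 tested) markers none passed limma's test (4 of 19 at an unadjusted p under 0.05), and T or NK cell and B cell markers each summed to at most 1.30 FPKM in any liver. Adipocyte markers summed to 13.1 FPKM in med23Δli replicate 2 and to at most 0.540 FPKM in each of the other 5 livers. The part of these differences in the p53 target values was not tested. Without med23Δli replicate 2 the log2 fold changes of Trp53inp1, Eda2r, Zmat3 and Ccng1 were 2.35, 2.33, 0.89 and 0.80.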

How the data were processed

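Per the study's methods and the labels, the authors extracted total liver RNA with Trizol, built Illumina libraries, aligned reads to mm10 with TopHat and ran Cuffdiff. Versions, annotation and Cuffdiff options are not given in the sources used here. The deposited values are FPKM per library. The authors also deposited group FPKM, a log2 fold change, a test score and p-values (raw and adjusted) of their own comparison, none of which was used. Low FPKM held no shared steps that would give back whole reads, so the number of reads behind a value was not recovered. Each limma p-value weighs the difference between the groups against the spread within them, moderated by a trend over all tested genes.

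log2(FPKM + 0.1) of 11956 genes averaging at least 0.5 FPKM was fitted with limma 3.58.1 in R 4.3.3 (eBayes with a trend, no block, Benjamini-Hochberg adjustment over all tested genes). The fit was tested on simulated data. Single genes also had an exact permutation test. Positions come from GENCODE M21 (mm10) and promoter windows from RefSeq (GRCm38.p6). The 10 members and all lists were chosen with earlier results of these data known. Named are the members, the listed genes that passed (per role, at most 4 in each direction), and Trp53, Mdm4, Gadd45a, Bax, Bbc3, Gdf15, Fas, Mki67, Ccnb1 and Med23 whatever their result. Alternatives were other pseudocounts, filters, scalings, eBayes settings and thresholds, a replicate block and leaving out each library. Python 3.11.15, pandas 2.3.3 and matplotlib 3.10.9 were also used.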

Additional observations from a re-analysis of the deposited data

How the results depend on the processing

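The count of 4 risers among the 10 targets was 4 under other pseudocounts, filters, scalings and eBayes settings, and 2 at an adjusted p under 0.01 or with a change of more than 2-fold. With a library left out it ranged from 2 to 4, and the count of fallers was 0 under all settings run. The other targets that rose numbered 2 and those that fell 1 at an adjusted p under 0.01, and 7 and 2 with a change of more than 2-fold. Beside 11 and 7 in the main fit, they numbered 9 and 9 with median centring and 12 and 9 with quantile normalization. They numbered 9 and 5 without a trend and 8 and 5 with no filter. Over the left-out libraries they ranged from 4 to 12 and from 3 to 6. Over all genes, 344 rose and 239 fell at 0.01, 532 and 412 changed more than 2-fold, and the ranges over left-out libraries were 411 to 1741 and 354 to 1428. Beside 1384 and 1133 in the main fit, median centring gave 1356 and 1250, and quantile normalization 1301 and 1351. Regulators of p53 that rose numbered 2 with a pseudocount of 1 or quantile normalization, 3 without a trend, and 0 with no filter, at 0.01 or with 2-fold, and those that fell 0 at 0.01 or with 2-fold. Over the left-out libraries the ranges were 0 to 2 and 0 to 1. Cell cycle genes that rose numbered 0 with a filter at 1 FPKM or at 0.01, and over the left-out libraries 0 to 1 rose and 0 to 1 fell. Stricter thresholds call fewer genes by construction. The cause of the other shifts was not tested.

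The labels name no pairing of the livers. Same-numbered livers deviated from their group means with correlations of −0.02, −0.05 and −0.12. With 3 livers per group such values cannot decide whether livers were paired. With the replicate number as a replicate block 3 members rose (Ccng1 was lost), 809 genes rose and 614 fell over all genes, 8 other targets rose and 3 fell, and 0 regulators and 0 cell cycle genes passed. No liver correlated best with its own number. Directions turned for values near 0: Btg2 (range over left-out libraries −0.09 to 0.21, −0.09 without control 2 or med23Δli replicate 2), Mdm2 (−0.10 to 0.44, −0.10 without control 2), Sesn1 (−0.17 to 0.01, 0.01 without med23Δli replicate 1), Trp53 (0.00 under quantile normalization, and −0.01 to 0.15 over left-out libraries, −0.01 without control 1) and Med23 (−0.22 to 0.02, 0.02 without control 3). Genes with a p53 element numbered 1 with 2 mismatches allowed and 2 with a mismatch allowed in a core, a setting chosen after seeing the data. A wider search around the starts was planned and not run. FPKM without counts set no limit of detection, so low genes such as Eda2r rest on the spread of 3 livers.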
